A study of Mus musculus with 6 samples.

Results

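The genes of the proteasome were examined in hippocampal RNA from 3 mice made IκBα-deficient in the neural lineage and 3 littermate controls. Members were all genes whose symbol begins with Psm, a letter from a to g and a digit, with the probe set of highest mean level over the 6 arrays standing for each gene. This gave 49 of 18193 genes, read from 103 probe sets. Of these, 3 were immunoproteasome subunits (Psmb8, Psmb9 and Psmb10) and 31 were constitutive core and regulatory subunits. The others were activators, an inhibitor, assembly factors, 2 tissue-restricted core subunits, and Psmc3ip and Psme3ip1, which match by name only because they are named as partners of Psmc3 and Psme3. A probe set shared by Psme2 and Psme2b carries several symbols and was not used.

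All 6 animals were 2 to 3 months old and carried IκBαfl/-, that is 1 floxed and 1 null allele of the IκBα gene Nfkbia. The deficient animals and their littermates are described as 3 pairs, and the labels do not say whether the repeat numbers mark those pairs. The 3 deficient animals also carried Nestin-Cre, which is active in the neural lineage that gives rise to neurons, astrocytes and oligodendrocytes. Microglia and blood vessels arise elsewhere, and controls were not wild type, since they too had the null allele. Total RNA of whole hippocampus was measured on Affymetrix arrays, 1 per animal, and values are RMA levels on the log2 scale, where a difference of 1 is a doubling. In such bulk tissue, fewer cells of a type and less RNA per cell cannot be told apart.

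The proteasome is the barrel-shaped protease that degrades ubiquitin-tagged proteins. Rings of α subunits gate the barrel, β rings inside it cut, and a regulatory particle made of a base with ATPases and a lid recognises, unfolds and feeds in the substrate. In NF-κB signalling the proteasome degrades phosphorylated IκBα and thereby frees the transcription factor. Interferon-γ and other inflammatory signals induce Psmb8, Psmb9 and Psmb10, which replace the catalytic subunits Psmb5, Psmb6 and Psmb7 in newly built particles and favour peptides that fit MHC class I. In the healthy brain these inducible subunits are known chiefly from microglia and other cells that answer to immune signals.

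Nfkbia stood at 10.39, 10.35 and 10.31 in controls and at 9.06, 9.13 and 8.66 in deficient animals, so every deficient array lay below every control. The difference was -1.40 ± 0.12 (SE), with an adjusted p of 0.057 (limma). IκBα-deficient array 2 stood apart in the 3′ to 5′ gap. On it, Gapdh and β-actin control probe sets at the 3′ end exceeded those at the 5′ end by a mean of 2.02. The gap was 0.56 to 0.73 on the other 5 arrays. Whether RNA quality made it wide was not tested. The neuron marker list lay well above the array medians of 6.08 to 6.13. Its mean was 12.57 to 12.59 in controls and a little lower, at 12.55, on every deficient array. Of its 10 genes, 5 had higher and 5 lower means, with a median difference of 0.0013. All of 11 choroid plexus genes and 12 of 12 meninges genes had higher means in deficient animals. The choroid plexus list means were 7.90, 5.75 and 5.68 in controls and 8.73, 8.13 and 7.76 in deficient animals. Deficient array 2 thus lay between deficient arrays 1 and 3 there, and leaving it out does not deal with that difference. Because of its 3′ to 5′ gap, results are given with and without deficient array 2 where it matters.

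The 3 inducible catalytic subunits are the members set against the constitutive ones here, and the bases just before their RefSeq start sites are shown for that reason (GRCm38.p6, read 5′ to 3′ in the direction of the gene, ending at the base before the start). Capitals mark matches to the κB consensus, the core of the interferon-stimulated response element (GAAA repeated after any 2 bases) or the γ-activated site TTCNNNGAA, each searched on both strands. For Psmb9 the far 25 bases were left out of the print because they lie in its neighbour Tap1.
Psmb9 (chr17:34187331-34187555, minus strand): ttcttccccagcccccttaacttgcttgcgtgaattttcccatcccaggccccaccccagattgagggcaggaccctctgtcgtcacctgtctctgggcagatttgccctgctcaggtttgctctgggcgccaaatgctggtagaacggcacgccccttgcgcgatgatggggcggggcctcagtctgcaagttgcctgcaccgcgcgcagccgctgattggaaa
Psmb8 (chr17:34197945-34198194, plus strand): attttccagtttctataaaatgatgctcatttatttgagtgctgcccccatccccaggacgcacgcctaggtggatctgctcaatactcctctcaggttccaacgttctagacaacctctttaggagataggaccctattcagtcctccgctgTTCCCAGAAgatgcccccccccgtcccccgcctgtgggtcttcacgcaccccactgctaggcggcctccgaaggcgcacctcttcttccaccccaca
Psmb10 (chr8:105938393-105938642, minus strand): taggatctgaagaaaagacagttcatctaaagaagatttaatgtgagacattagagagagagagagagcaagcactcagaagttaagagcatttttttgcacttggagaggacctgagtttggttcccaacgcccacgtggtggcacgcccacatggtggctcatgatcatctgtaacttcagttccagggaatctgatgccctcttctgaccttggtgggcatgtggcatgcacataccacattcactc
Psmb8 held 1 match, a γ-activated site at positions -97 to -89 counted from the start, and the other 2 windows held no match. In windows of 250 bases, matches to this motif were found in 7.02% of all 32851 RefSeq promoters, to the κB consensus in 7.25% and to the interferon-stimulated core in 2.98%. Among the 27 promoters of 25 constitutive subunits present in the table, 5 held a κB match, 2 an interferon-stimulated core and 0 a γ-activated site. A match is a stretch of letters and not a shown binding site.

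Among the immunoproteasome subunits, Psmb9 and Psmb8 had higher means in deficient animals by 0.24 and 0.18, and Psmb10 was nearly level. None of the 3 passed the test. Psmb9, the inducible replacement of Psmb6, stood at 6.46, 6.57 and 6.34 in controls and at 6.52, 6.71 and 6.85 in deficient animals. The groups overlapped only through deficient array 1, which lay below control array 2. The difference was 0.24 ± 0.10 (SE), or 1.18-fold, with a 95% interval of 0.009 to 0.47, an unadjusted p of 0.0437 and an adjusted p of 0.963 (limma, Benjamini-Hochberg over all 18193 genes).

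Psmb8, the inducible replacement of Psmb5, stood at 6.87, 6.70 and 6.72 in controls and at 6.87, 6.84 and 7.12 in deficient animals. Deficient array 3 was the high value, and deficient array 2 lay below control array 1. The difference was 0.18 ± 0.09 (SE), or 1.13-fold (95% interval -0.034 to 0.40, adjusted p = 0.963, limma), and it was 0.093 without deficient array 3. A second Psmb8 probe set was dim, at 3.94 to 4.07 on all arrays, and differed by -0.0023. Psmb10, the inducible replacement of Psmb7, stood at 9.66, 9.55 and 9.61 in controls and at 9.66, 9.57 and 9.67 in deficient animals. The 2 groups covered nearly the same range, and the difference was 0.025 ± 0.07 (SE), with a 95% interval of -0.13 to 0.18.

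The constitutive catalytic subunits did not pass either. Psmb5, which carries the chymotrypsin-like activity, stood at 11.94, 11.90 and 11.97 in controls and at 11.89, 11.80 and 11.89 in deficient animals. All 3 deficient arrays lay below the controls, by a mean of -0.076 ± 0.06 (SE), with an adjusted p of 0.963 (limma), and by -0.046 without deficient array 2. Psmb6, with the caspase-like activity, stood at 11.27, 11.21 and 11.23 against 11.31, 11.09 and 11.29, a difference of -0.0054 with overlapping groups. Psmb7, with the trypsin-like activity, stood at 11.51, 11.63 and 11.67 in controls and at 11.69, 10.68 and 11.66 in deficient animals. Its difference of -0.26 ± 0.25 (SE) came from deficient array 2, and without that array it was 0.071.

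**Figure D1:**
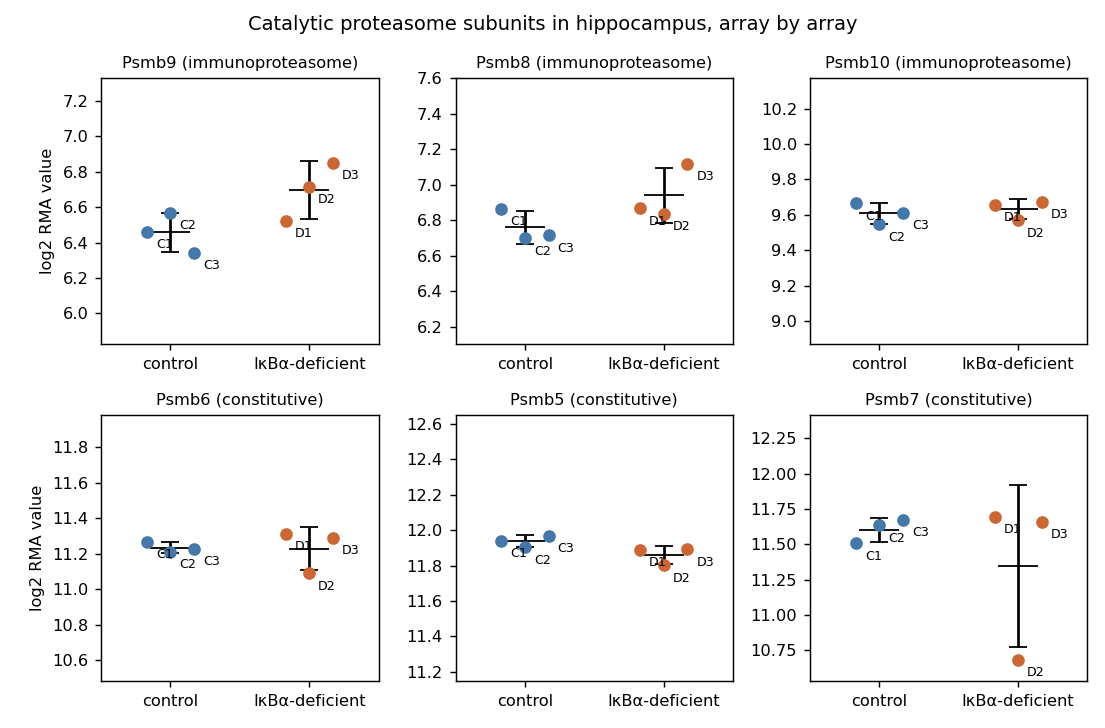
Log2 RMA values of the 3 immunoproteasome subunits (top row) and of the constitutive subunit each replaces (bottom row), with 1 point per array (C, control; D, IκBα-deficient; the number is the repeat) and bars for the group mean ± SD (n = 3). Psmb9 and Psmb8 are highest on deficient array 3, at 6.85 and 7.12, Psmb10 is level, and the wide spread of Psmb7 comes from deficient array 2 at 10.68.

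Averaged over the 3 genes, the immunoproteasome level was 7.66, 7.60 and 7.56 in controls and 7.68, 7.71 and 7.88 in deficient animals, a difference of 0.15 ± 0.07 (SE). Deficient array 1 exceeded control array 1 by only 0.02, and the difference fell to 0.086 without deficient array 3. The 3 constitutive counterparts averaged 11.57, 11.58 and 11.62 against 11.63, 11.19 and 11.61. Inducible minus constitutive within each array was -3.91, -3.98 and -4.07 in controls and -3.95, -3.48 and -3.73 in deficient animals. These values overlapped, and their group difference was 0.26. It was 0.14 without deficient array 2, whose low Psmb7 raises it. With the 3′ to 5′ gap as a covariate it was 0.15, and with the meninges mean 0.090. Both covariates were highest on deficient array 2, so they are not separate from leaving that array out. By pair, Psmb8 relative to Psmb5 was higher on every deficient array (-5.02, -4.96 and -4.77 against -5.07, -5.21 and -5.25), while Psmb9 relative to Psmb6 and Psmb10 relative to Psmb7 overlapped. These combined values describe the members and were not tested.

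Psmb9 and Psmb8 lie on chromosome 17 in the order Psmb9, Tap1, Psmb8, Tap2, next to the genes of the transporter that carries proteasome peptides into the endoplasmic reticulum. Both neighbours had higher means. Tap1 stood at 6.68, 6.83 and 6.54 in controls and at 6.87, 7.31 and 6.79 in deficient animals, a difference of 0.30 ± 0.14 (SE), with 2 of its 4 probe sets of the other sign. It was 0.15 without deficient array 2 and 0.043 with the meninges mean as a covariate. Tap2, chosen after its values were seen, stood at 7.03, 7.02 and 7.05 against 7.03, 7.33 and 7.32, a difference of 0.19. It was 0.14 without deficient array 2 and 0.29 without deficient array 1. Of 11 measured genes in a list of interferon regulators and peptide supply, 10 had higher and 1 a lower mean, with a median of 0.11 beside 0.006 over all genes, and 0 passed after adjustment (limma). At an unadjusted p under 0.05 there were 2 of 11, or 18.2% beside 4.71% of all genes, and in both every deficient array lay above every control, as in 5.94% of all genes. Irf1, an interferon-induced activator of Psmb9 and Tap1, stood at 7.87, 7.96 and 7.93 against 8.02, 8.24 and 8.11. Its difference was 0.20, or 0.14 without deficient array 2. Tapbp, the chaperone that bridges the transporter to class I molecules, stood at 8.80, 8.87 and 8.86 against 8.99, 9.01 and 8.96, with 1 of its 2 probe sets of the other sign. The list was chosen with class I presentation genes of these arrays already seen to be higher, so it gives no independent support.

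Over all 6 arrays, markers of the cells known for inducible subunits were split. Of 13 microglial genes 7 had higher and 6 lower means, with list means of 8.74 to 8.88 in controls. The list mean was 8.91 and 8.97 on deficient arrays 1 and 3, above every control, and 8.63 on deficient array 2. For 3 of the 13 every deficient array lay above every control (23.1%, beside 5.94% of all genes), and for 0 below. Endothelial genes were higher in 8 of 11, at 7.77 to 7.88 against 7.84 to 7.95, and leukocyte genes in 4 of 10, at 5.28 to 5.32 against 5.21 to 5.40. Among the leukocyte genes, Ptprc, the pan-leukocyte antigen, differed by 0.23 and the other 9 by -0.050 to 0.056; it was named after its values were seen. The meninges list stood at 7.15 to 7.83 in controls and 7.76 to 8.87 in deficient animals, and the choroid plexus list at 5.68 to 7.90 against 7.76 to 8.73. The mean of the astrocyte list was slightly higher, at 11.18 to 11.21 against 11.21 to 11.27. Of its 10 genes, however, 5 had higher and 5 lower means, with a median difference of -0.011. Every deficient array lay above every control for 3 of the 10 and below for 3, together 60%, beside 9.76% of all genes. The groups also did not overlap for 4 of 12 meninges genes (33.3%) and 2 of 11 choroid plexus genes (18.2%), all of them above. With the choroid plexus mean as a covariate the differences were 0.31 for Psmb9 and 0.12 for Psmb8, and with the meninges mean 0.19 and 0.25. None of these fits passed, and the part of other tissue in the values was not tested beyond them.

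Over the whole set, 0 of 49 proteasome genes passed at an adjusted p under 0.05 (limma), and the share over all genes was 0%. At an unadjusted p under 0.05 there were 2, Psmc4 and Psmb9, both with higher means, or 4.08% of members beside 4.71% of all genes, 3.33% of all genes being higher. The groups did not overlap for 2 members, Psmc4 above and Psmb5 below, which is 4.08% beside 9.76% of all genes (5.94% above and 3.82% below). Both shares are at or under the background. Lower means outnumbered higher ones, with 32 of 49 lower (65.3%, beside 47.4% of all genes), and the median difference was -0.041 beside 0.006 over all genes. Without IκBα-deficient array 2, however, 30 of 49 were higher, beside 48.0% of all genes. The interval widths were uneven: the median SD within groups was 0.08 for constitutive subunits and 0.10 over all genes, but single subunits reached an SD of 0.85 among deficient arrays.

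**Figure D2:**
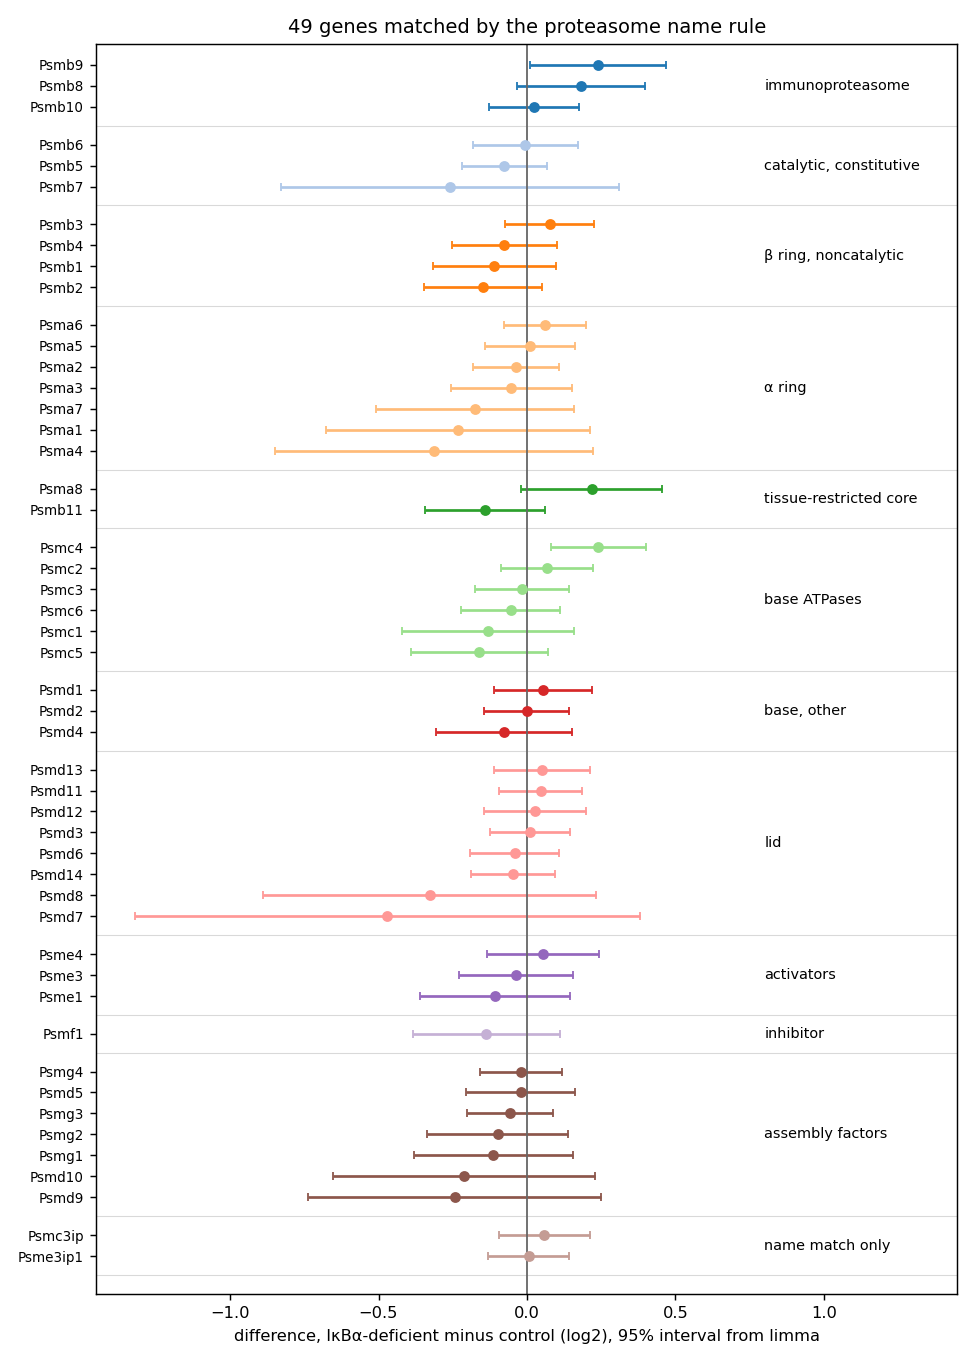
Difference between IκBα-deficient and control means (log2) for each of the 49 genes, grouped by role, with points for the estimate and bars for the 95% interval of the limma fit. Only the intervals of Psmb9 and Psmc4 lie above 0, before any adjustment for the number of genes, and the widest interval is that of Psmd7.

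The α ring, which forms the gate and the docking face of the barrel, had 2 of 7 members higher and 5 lower, with differences of -0.31 to 0.060, and 0 passed (limma). Its members were tight in controls, where the SD lay between 0.010 and 0.10. Psma4 stood at 11.37, 11.38 and 11.56 in controls and at 11.44, 10.51 and 11.42 in deficient animals. Psma7 stood at 11.02, 11.01 and 10.98 against 11.03, 10.46 and 11.00. In both genes deficient arrays 1 and 3 lay at or near the control range and deficient array 2 far below it. Psma5 differed by 0.009 with overlapping groups. The noncatalytic β subunits had 1 of 4 higher and 3 lower, from -0.15 to 0.076. Psmb2 stood at 11.14, 11.06 and 11.24 against 11.06, 10.85 and 11.09, and Psmb1 at 11.51, 11.50 and 11.58 against 11.49, 11.23 and 11.54. Their differences of -0.15 and -0.11 were -0.074 and -0.017 without deficient array 2. Psmb4 differed by -0.077, again with overlap, and by -0.018 without deficient array 2. A second Psmb4 probe set, also bright, went the other way, with means of 11.83 in controls and 11.95 in deficient animals and overlapping groups.

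The base unfolds substrates with its 6 ATPases, of which 2 had higher and 4 lower means. Psmc4 had the smallest p of all members. It stood at 11.14, 11.21 and 11.09 in controls and at 11.44, 11.43 and 11.30 in deficient animals, so every deficient array was above every control. The difference was 0.24 ± 0.07 (SE), or 1.18-fold (95% interval 0.081 to 0.40, unadjusted p = 0.00859, adjusted p = 0.963, limma), and it lay between 0.21 and 0.28 with any 1 array left out. The other Psmc4 probe set did not show it, with 10.43, 10.28 and 10.44 in controls against 10.36, 10.40 and 10.44, a difference of 0.013. Psmc5 stood at 11.96, 11.84 and 11.95 against 11.85, 11.54 and 11.87, a difference of -0.16, or -0.052 without deficient array 2, and Psmc3 differed by -0.015. Of the 3 other base subunits, the ubiquitin receptor Psmd4 differed by -0.077, or 0.028 without deficient array 2, and the scaffold subunits Psmd1 and Psmd2 by 0.054 and -0.0013. Psmd1 was nearly identical on the deficient arrays, at 11.20, 11.20 and 11.21.

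The lid removes ubiquitin before degradation. Of its 8 subunits 4 had higher and 4 lower means, and it held the widest differences of the set. Psmd7, the partner of the deubiquitinase Psmd14, stood at 9.49, 9.20 and 9.68 in controls and at 9.33, 8.02 and 9.60 in deficient animals. The difference was -0.47 ± 0.37 (SE), with an adjusted p of 0.963 (limma), and 0.012 without deficient array 2. Psmd8 stood at 11.04, 10.95 and 11.13 against 11.03, 10.06 and 11.05, a difference of -0.33, and -0.0022 without that array. Psmd3 was flat, at 10.01, 9.99 and 9.94 against 9.97, 10.00 and 10.00. Outside Psmd7 and Psmd8, the lid subunits differed by -0.047 to 0.050.

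Many of the lower means among constitutive subunits came from 1 array. IκBα-deficient array 2 held the lowest of the 6 values for 18 of the 31 constitutive subunits (58.1%), while it was lowest for 18.1% of all genes. This array held the highest value for 5 of the 31 (16.1%), beside 32.4% of all genes. It lay more than 0.3 below the mean of the other 2 deficient arrays for 9 of the 31 (29.0%), beside 5.65% of all genes and 7.82% of the genes at least as bright as the dimmest of the 31. The gap was 2.73-fold for Psmd7, 1.99-fold for Psmb7, 1.97-fold for Psmd8 and 1.90-fold for Psma4. Psma1, named after its values were seen, stood at 10.40 there beside 11.22 and 11.11. For 9 of the 31 it lay above that mean instead, by at most 0.10. The same array had the wide 3′ to 5′ gap and the highest meninges mean, and their part in these values was not tested. Without it, 18 of 31 constitutive subunits had higher means (58.1%, beside 48.0% of all genes). Their median difference went from -0.047 to 0.010, and the range was -0.074 to 0.22, with 0 passing (limma).

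**Figure D3:**
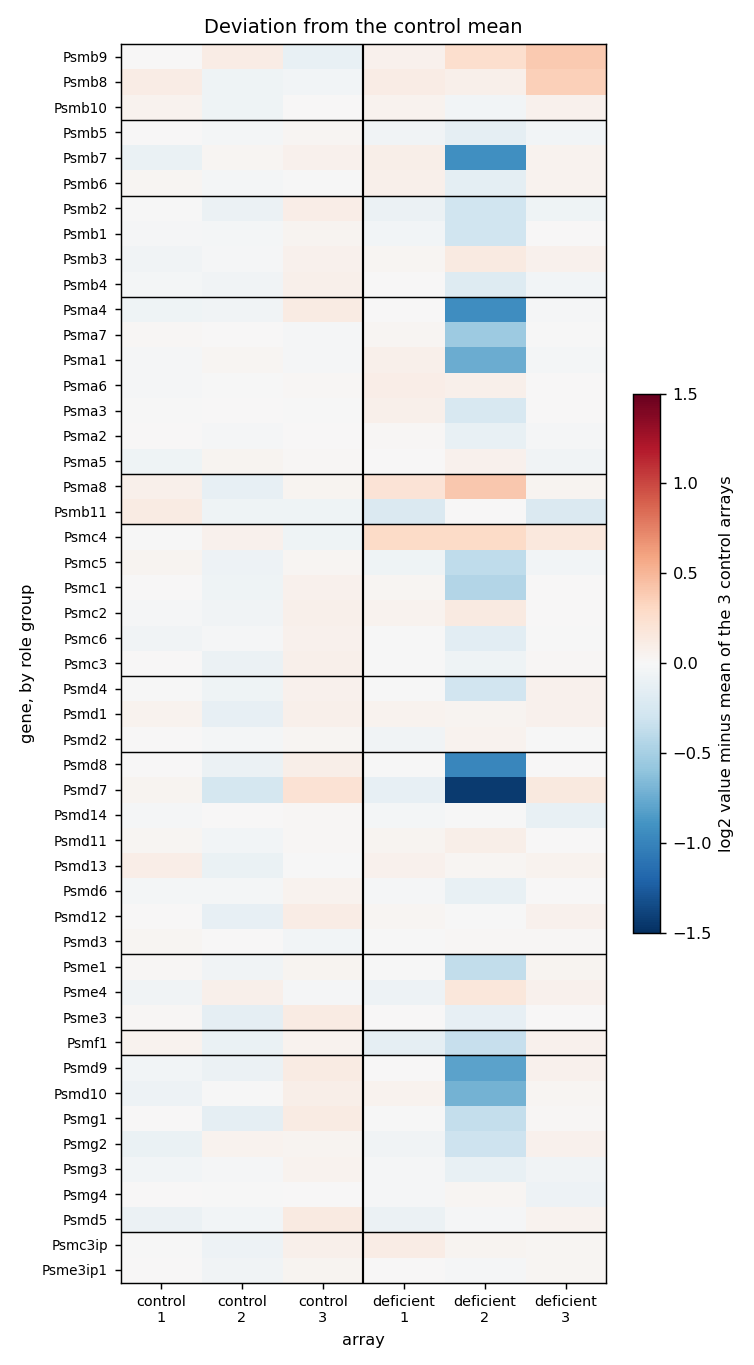
Log2 value of each of the 49 genes (rows, by role group, smallest p first) on each array (columns) minus the mean of the 3 control arrays, on a scale cut at -1.5 and 1.5. Deficient array 2 shows the dark cells, among them Psmd7, Psmb7, Psmd8 and Psma4, while deficient arrays 1 and 3 stay pale for the same genes.

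Not every probe set of a gene was low on that array. On deficient array 2 the brightest Psmd7 probe set was at 8.02 beside 9.33 and 9.60 on the other deficient arrays, but a second one was at 7.22 beside 7.26 and 7.23. For Psmd11, a lid subunit with 8 probe sets that was named after its values were seen, the brightest was at 11.78 there beside 11.72 and 11.69, while another was at 9.11 beside 9.54 and 9.58. Of the 49 genes, 27 had several probe sets.

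**Figure D4:**
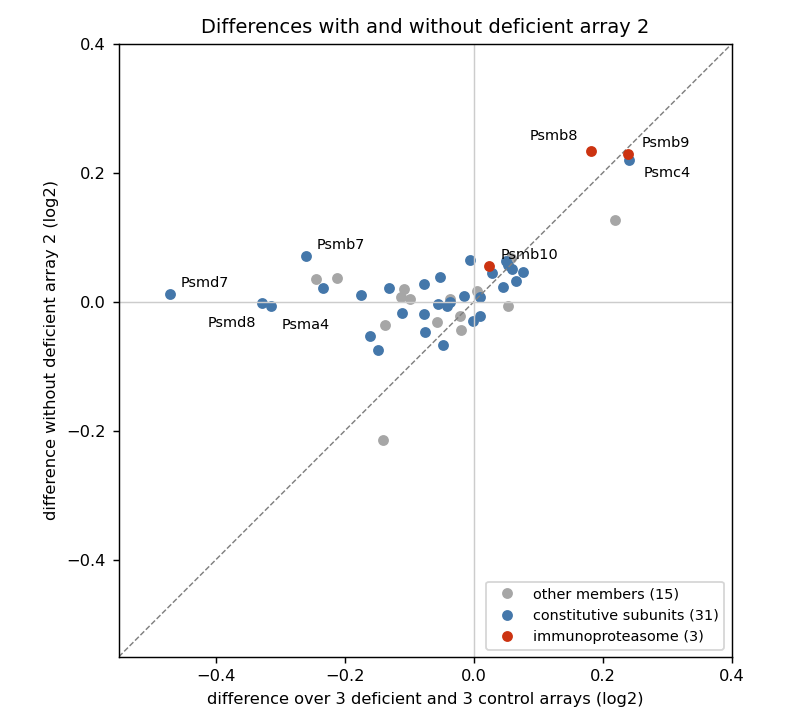
Difference (log2, IκBα-deficient minus control) over all 6 arrays (horizontal axis) against the difference without IκBα-deficient array 2 (vertical axis), with a point per gene and a dashed line where both are equal. Psmd7, Psmd8, Psma4 and Psmb7 move from -0.47, -0.33, -0.31 and -0.26 to values near 0, whereas Psmb9 and Psmc4 lie close to the line and Psmb8 moves from 0.18 to 0.23.

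Activators that open the α ring were not raised together. Psme1, a subunit of the interferon-inducible PA28 ring, stood at 10.22, 10.15 and 10.24 in controls and at 10.20, 9.84 and 10.25 in deficient animals. Its difference was -0.11 (95% interval -0.36 to 0.15), and 0.021 without deficient array 2. Psme3, the nuclear PA28γ, differed by -0.037, and Psme4, the PA200 activator, by 0.054, each with overlapping groups. The inhibitor Psmf1 stood at 8.61, 8.46 and 8.61 against 8.42, 8.22 and 8.62, a difference of -0.14, or -0.036 without deficient array 2, with 1 of its 4 probe sets of the other sign.

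Assembly factors guide the rings and the base together. All 7 had lower means, from -0.24 to -0.020, and 0 passed (limma). Without deficient array 2, 4 of the 7 were higher and 3 lower. Psmd9 stood at 8.74, 8.69 and 8.91 against 8.78, 7.97 and 8.85, and Psmd10 at 8.77, 8.85 and 8.94 against 8.90, 8.14 and 8.88. Both were low on deficient array 2 only, and their differences of -0.24 and -0.21 became 0.036 and 0.038 without it. Psmd5 differed by -0.022. The testis subunit Psma8 and the thymus subunit Psmb11 were at 4.15 to 4.67 and 4.09 to 4.42, low values where RMA compresses differences. They differed by 0.22 and -0.14 with overlapping groups. Psmc3ip, a meiotic recombination factor, differed by 0.058, and Psme3ip1 by 0.0057.

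Partners of the proteasome outside the name rule gave a similar picture. Of 17 measured genes (bound deubiquitinases and ligases, ubiquitin shuttles, the Vcp machinery, the assembly factor Pomp and the regulator Nfe2l1), 7 had higher and 10 lower means, from -0.14 to 0.060, with a median of -0.014, and 0 passed (limma). Uchl5, a deubiquitinase on the base, stood at 10.61, 10.61 and 10.69 against 10.63, 10.36 and 10.57. Nploc4, a cofactor of Vcp, differed by -0.066. Every deficient array lay below every control for Nploc4, and above every control for 1 other of the 17 genes. Together that is 11.8%, beside 9.76% of all genes. Pomp, which matures newly built barrels, stood at 11.94, 11.94 and 11.98 against 11.95, 11.47 and 12.02, low on deficient array 2 only.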

How the data were processed

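Hippocampal RNA of 6 animals, 3 per group, was read on 1 array each. The deposited log2 values had been made by the authors with RMA, per the submitters' processing notes; RMA corrects background, quantile-normalizes arrays and summarises each probe set. For its version and probe annotation, no source used here gives a statement. Quantile normalization hides a change shared by most genes, and low values are compressed. Of 45101 probe sets, 34945 had 1 gene symbol by the platform annotation of GEO, of uncertain age, and 64 were controls. All 49 member symbols matched a RefSeq gene. Promoters are from RefSeq (GRCm38.p6).

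Genes were compared with limma 3.58.1 in R 4.3.3 (genotype as the only term, two-sided), with Benjamini-Hochberg adjustment over all 18193 genes and a threshold of 0.05. The script was tested on simulated data. Figures used matplotlib 3.10.9. Arrays have no read depth, and 3 arrays per group limit the precision. The labels call the arrays biological repeats.

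Members, role groups, gene lists and alternatives were chosen with earlier results of these data known. Single genes named were the catalytic subunits and those they replace, Psme1, Nfkbia, members with an unadjusted p under 0.05, in each role group the 2 smallest and the largest p, and the 3 smallest p of the partner and peptide supply lists. Others appear in ranges or are marked. Alternatives are listed in the closing section.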

Additional observations from a re-analysis of the deposited data

How the results depend on the processing

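No proteasome gene passed under any of the 16 alternatives: each array left out, the replicate block, repeated quantile normalization, centring on the median, a filter on the dimmest 40% of genes, other choices of probe set, moderation with a trend, or a covariate for choroid plexus, meninges or the 3′ to 5′ gap. The mean of the immunoproteasome subunits stayed above 0 wherever all 3 were measured, from 0.086 without deficient array 3 to 0.19 without deficient array 1. Psmb9 fell out under the filter on dim genes and Psmb8 when probe sets coded s, x or a were left out, so those gave no mean. Of 647 single-gene values under alternatives, 562 kept sign and call, 6 gained a call (Nfkbia) and 79 turned sign. The number of members with separated groups, 2, was 5 with probe sets averaged, 1 with median centring, 0 without probe sets coded s, x or a, and 6 to 8 with any array left out, where fewer arrays separate more easily.

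The repeat numbers were not taken as pairs because the labels do not say that they mark the littermate pairs. Deviations of same-numbered arrays correlated at 0.061, 0.24 and 0.20, and those of differently numbered arrays at -0.27 to 0.14. These correlations do not decide whether the numbers mark pairs. With the replicate block 0 members passed, 1 instead of 2 had an unadjusted p under 0.05 (limma), the immunoproteasome mean difference was 0.15, and Psmb9 had an adjusted p of 0.848 (limma).

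With the meninges covariate the mean of the 3 constitutive counterparts was 0.079 and the median of the constitutive subunits 0.051, and with the 3′ to 5′ covariate they were 0.026 and 0.0096, against -0.11 and -0.047 without a covariate. The meninges covariate turned the sign of Psma4 (0.12), Psma5 (-0.028), Psma7 (0.053), Psmb1 (0.026), Psmb4 (0.027), Psmb6 (0.083), Psmb7 (0.18), Psmc3 (0.049), Psmd10 (0.13), Psmd3 (-0.0065), Psmd4 (0.086), Psmd5 (0.026), Psmd7 (0.24), Psmd8 (0.12), Psmd9 (0.16), Psme1 (0.073), Psme3 (0.068), Psme4 (-0.034), Psmf1 (0.021), Uchl5 (9.3e-04), Pomp (0.089) and Psma1 (0.082). The 3′ to 5′ covariate turned Psma5 (-0.021), Psma7 (0.0023), Psmb6 (0.062), Psmb7 (0.060), Psmc3 (0.013), Psmd10 (0.031), Psmd4 (0.029), Psmd7 (0.0096), Psmd9 (0.032), Psme1 (0.019), Psme3 (0.010), Psme4 (-0.0056), Pomp (0.026) and Psma1 (0.011). The choroid plexus covariate turned Psmb10 (-0.034), Psmd2 (0.0095), Psmd3 (-0.013), Psmd5 (0.11) and Psme3ip1 (-0.0026). With probe sets averaged, values were -0.024 for Psma5, 0.024 for Psmb4, 0.056 for Psmd2, 0.025 for Psme3, -0.0039 for Psme4, 0.0081 for Uchl5 and 0.045 for Psma1. Psmb1 was at 0.034 without probe sets coded s, x or a, and Psmd2 at 0.0051 after quantile normalization again. The cause of these turns was not tested. The meninges mean and the 3′ to 5′ gap were both highest on deficient array 2, so these covariates are not separate from leaving that array out.

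With each array left out in turn, ranges that crossed 0 were -0.24 to 0.031 for Pomp, -0.39 to 0.022 for Psma1, -0.022 to 0.039 for Psma5, -0.28 to 0.010 for Psma7, -0.0060 to 0.056 for Psmb10, -0.046 to 0.065 for Psmb6, -0.43 to 0.071 for Psmb7, -0.060 to 0.025 for Psmc3, -0.0074 to 0.091 for Psmd1, -0.34 to 0.038 for Psmd10, -0.030 to 0.025 for Psmd2, -0.0098 to 0.025 for Psmd3, -0.15 to 0.028 for Psmd4, -0.065 to 0.045 for Psmd5, -0.78 to 0.012 for Psmd7, -0.40 to 0.036 for Psmd9, -0.18 to 0.021 for Psme1, -0.11 to 0.026 for Psme3, -0.018 to 0.024 for Psme3ip1 and -0.0060 to 0.12 for Psme4.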
